A study of Rattus norvegicus with 6 samples.

Results

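The cytokine, chemokine and NF-kB genes described here are 44 rat genes chosen as a list of symbols: chemokines, interleukins and other cytokines, some of their receptors, leukocyte adhesion molecules, and NF-kB subunits with feedback inhibitors. Their transcripts were measured in renal cortex of 6 male Sprague-Dawley (Crl:CD(SD)) rats, bought at 5 weeks of age, on 1-colour Agilent arrays, 1 array per rat. The 3 rats of the water group received water for 4 weeks, and the 3 rats of the ethylenediamine group received ethylenediamine dihydrochloride, the salt of a small diamine, at 500 mg/kg/day for the same 4 weeks. The comparison asks which of these genes differ in the cortex after treatment. Of the 44 genes, 39 were matched to at least 1 probe through a RefSeq accession, and 34 of these could be tested among the 11530 genes tested in all.

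Chemokines are small secreted proteins that direct leukocyte movement through receptors on the cell surface, and the CC, CXC and CX3C families are named for the spacing of their leading cysteines. Interleukins and tumour necrosis factor act on kidney tubule cells, endothelium and resident macrophages. Many of their signals release the transcription factor NF-kB from its inhibitor, and NF-kB then switches on chemokine, adhesion molecule and inhibitor genes. Injured tubules are a known source of several of these ligands.

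Each signal below is the log2 intensity of the gene's brightest probe minus the 75th percentile of the same array, so that 0 stands for the 75th percentile and a difference of 1 is a 2-fold difference. Signals are compared between arrays. Between genes they serve only to sum markers and to group genes by brightness, not to compare transcript amounts. The number of probes well above background ran from 35691 to 40843 per array, with the lowest number on ethylenediamine replicate 1. There, probes below background on all arrays had a median signal of -6.53, against -7.55 to -7.23 on the other 5 arrays, so low signals on that array are the least certain. The 3 water arrays and ethylenediamine replicate 1 shared slide 1, and ethylenediamine replicates 2 and 3 were on slide 2. Values within slide 1 therefore rest on 1 treated rat. All 14 markers of cortical tubules and podocytes, Slc34a1, Lrp2, Umod and Nphs1 among them, were measured above background. An unadjusted limma p under 0.05 was found for 3 of these 14, all with lower signal after treatment, beside 4.97% lower over all genes tested. Their log2 differences from water ran from -0.89 to -0.19. Lrp2 was among these 3, with the smallest difference, -0.19, while Slc34a1, Umod and Nphs1 were not among them. Over all 14 markers, 4 log2 fold changes were positive and 10 negative. In bulk tissue, fewer cells of a type and less RNA per cell cannot be told apart.

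Treatment and water differed little over the list as a whole. Lif, Cxcl10 and Ccl21 had the smallest unadjusted p values by limma, with signals at 1.58-fold, 1.64-fold and 2.03-fold the water level. By limma, 0 of the 34 tested members passed an adjusted p of 0.05 in either direction, where 0 of all 11530 genes did (0.0% higher and 0.0% lower). At an unadjusted p under 0.05, 3 members were higher (Lif, Cxcl10 and Ccl21), against 5.39% of all genes. At that level 0 members were lower, against 4.97%. The 3 members are 8.82% of those tested, so the share higher is near the background. The median log2 fold change over the 34 members was 0.01, and over all genes it was 0.00. A positive log2 fold change was found for 17 members and a negative one for 17, beside 48.8% positive over all genes.

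**Figure D1:**
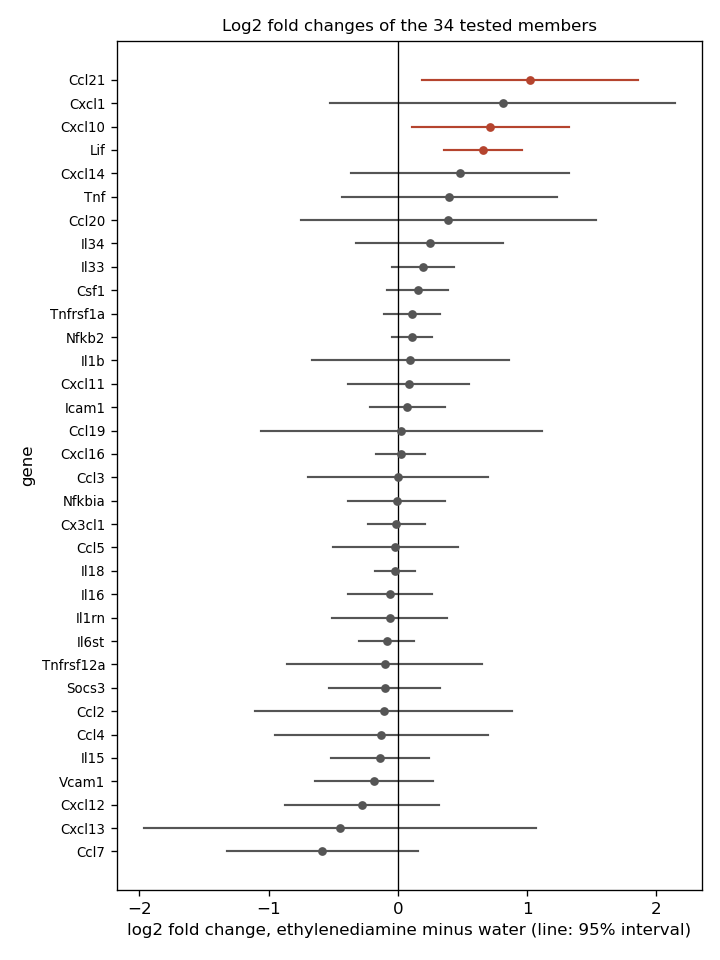
Log2 fold change of each of the 34 tested members (x axis, ethylenediamine minus water, n = 3 per group), with the 95% interval of limma's moderated fit as a line and genes on the y axis in order of size. Red marks the 3 members with an unadjusted p under 0.05 (Ccl21, Cxcl10 and Lif), and the intervals of the other 31 include 0.

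Lif encodes leukemia inhibitory factor, a cytokine that signals through the shared receptor chain gp130. Its signal was -3.66, -3.81 and -3.81 on water replicates 1 to 3, and -2.97, -2.97 and -3.36 on ethylenediamine replicates 1 to 3. Every treated array lay above every water array. All water arrays were on slide 1, so slide and treatment cannot be told apart for ethylenediamine replicates 2 and 3. The log2 fold change came to 0.66 ± 0.12 (SE, 3 rats per group; 95% interval 0.35 to 0.96), with an adjusted p of 0.329 by limma. Lif was at an unadjusted p under 0.05 in the fit without any 1 of the 6 arrays in turn. Within slide 1 it stood at 0.79, a value that rests on ethylenediamine replicate 1, the array where low signals are the least certain. With normexp background correction, which draws dim signals together, the value was 0.40.

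Cxcl10 encodes an interferon-inducible chemokine that attracts T cells bearing the receptor CXCR3. Its signal was -0.26, 0.14 and -0.70 on the water arrays and 0.32, 0.77 and 0.23 on the ethylenediamine arrays. The groups did not overlap, although water replicate 2 came close to ethylenediamine replicate 3. The log2 fold change came to 0.72 ± 0.25 (SE, 3 rats per group; 95% interval 0.11 to 1.32), with an adjusted p of 0.428 by limma. The other interferon-inducible CXCR3 ligand on the list, Cxcl11, overlapped between the groups, from -0.24 to 0.37 in water and from -0.07 to 0.25 in treated cortex. Over all members, groups that did not overlap were found for 2 of 34 (Lif and Cxcl10, both higher, 5.88%), beside a background of 9.2% higher and 8.27% lower over all genes.

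Ccl21 encodes a chemokine made by lymphatic vessels and lymphoid stroma, which guides cells bearing CCR7. Its signal was -1.07, -0.03 and -1.25 in water and -0.03, 0.45 and 0.31 in treated cortex. Water replicate 2 had practically the signal of ethylenediamine replicate 1, and the other treated arrays lay above all water arrays. The log2 fold change came to 1.02 ± 0.34 (SE, 3 rats per group; 95% interval 0.19 to 1.86), with an adjusted p of 0.411 by limma. Ccl19, the other CCR7 ligand, did not follow the same pattern: it ran from 0.81 to 1.52 in water and stood at 0.63, 2.19 and 0.86 on ethylenediamine replicates 1 to 3.

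Without water replicate 1, water replicate 3 or ethylenediamine replicate 2, Cxcl10 and Ccl21 lost their unadjusted p under 0.05, and Lif was the 1 member that remained higher. Ccl21 lost it also without ethylenediamine replicate 3, where 5 members were higher (Csf1, Cxcl1, Cxcl10, Lif and Tnf). Within slide 1, Cxcl10 stood at 0.59 and Ccl21 at 0.75, and neither was at an unadjusted p under 0.05.

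**Figure D2:**
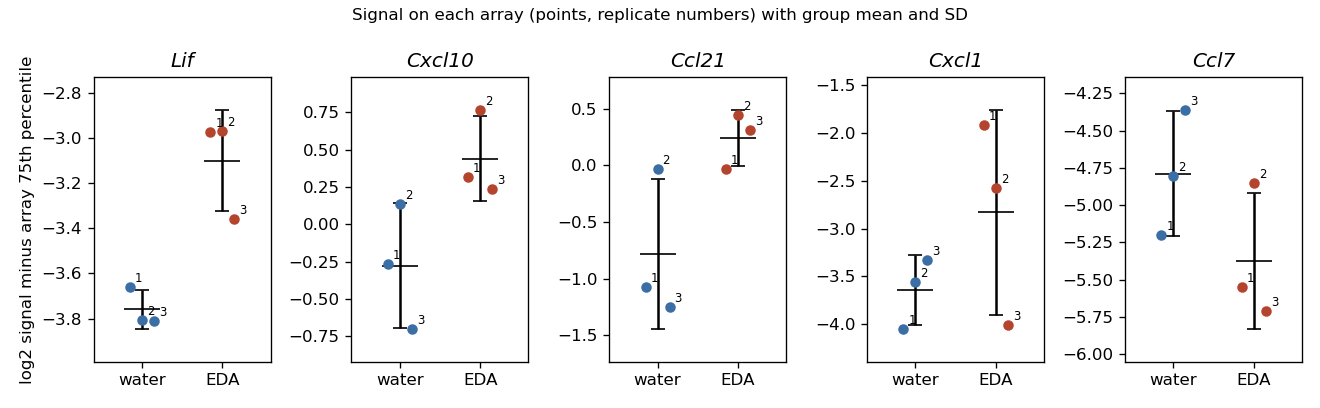
Signal of Lif, Cxcl10, Ccl21, Cxcl1 and Ccl7 on each array (y axis, log2 intensity minus the array's 75th percentile; each panel has its own scale) in water and ethylenediamine (EDA) rats, with group mean and SD as bars and the replicate number beside each point. The groups are apart for Lif and Cxcl10, meet for Ccl21 and overlap for Cxcl1, where ethylenediamine replicate 1 is at -1.91 and replicate 3 at -4.01, and for Ccl7.

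Among the other chemokines, Cxcl1, a neutrophil attractant, had the widest spread in treated cortex. Its signal was -4.05, -3.55 and -3.33 in water and -1.91, -2.57 and -4.01 on ethylenediamine replicates 1 to 3. Replicates 1 and 2 lay above all water arrays, and replicate 3 lay at their lower end. The log2 fold change came to 0.81 ± 0.54 (SE, 3 rats per group; 95% interval -0.52 to 2.15; adjusted p = 0.646 by limma). The value was 1.40 without ethylenediamine replicate 3, 0.35 without ethylenediamine replicate 1, and 1.73 within slide 1. The related neutrophil attractant Cxcl2 was not well above background on any array. On ethylenediamine replicates 1 to 3 its brighter probe read -6.43, -5.65 and -5.71 and in water it ran from -7.48 to -7.17, all under the lowest signal well above background on the same arrays, so no fold is given.

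To show the sequence ahead of these chemokine genes, 3 promoters from RefSeq (build GRCr8) are printed, each 250 bases up to the transcription start on the gene's strand. Cxcl10 and Ccl21 are the chemokines with an unadjusted p under 0.05, and Cxcl1 is the one with the widest spread between treated rats. Capitals mark matches on either strand to the NF-kB consensus of 10 bases, or to an interferon-response motif (GAAA, any 2 bases, GAAA). The windows are chr14:15988816-15989065 (+) for Cxcl10, chr5:61777516-61777765 (-) for Ccl21 and chr14:17479322-17479571 (-) for Cxcl1.
Cxcl10: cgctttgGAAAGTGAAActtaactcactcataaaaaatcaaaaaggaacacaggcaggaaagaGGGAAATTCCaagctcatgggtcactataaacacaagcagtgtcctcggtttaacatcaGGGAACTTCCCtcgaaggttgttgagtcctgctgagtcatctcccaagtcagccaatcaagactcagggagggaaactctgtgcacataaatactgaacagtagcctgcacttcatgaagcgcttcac
Ccl21: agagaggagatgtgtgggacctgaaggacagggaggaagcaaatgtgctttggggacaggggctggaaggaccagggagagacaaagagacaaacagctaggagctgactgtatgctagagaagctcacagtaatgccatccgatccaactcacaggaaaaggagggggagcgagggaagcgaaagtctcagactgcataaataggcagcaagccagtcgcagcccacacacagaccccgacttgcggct
Cxcl1: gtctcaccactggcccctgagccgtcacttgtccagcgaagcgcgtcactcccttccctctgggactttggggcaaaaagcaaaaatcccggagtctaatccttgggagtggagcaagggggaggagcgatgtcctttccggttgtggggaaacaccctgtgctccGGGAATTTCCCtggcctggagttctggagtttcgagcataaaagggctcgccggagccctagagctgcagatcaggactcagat

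Cxcl10 held the interferon-response motif 243 bases before the start, where the match reads GAAAGTGAAA, and NF-kB matches at 187, 128 and 127 bases, the last 2 overlapping. Cxcl1 held overlapping NF-kB matches at 84 and 83 bases, and Ccl21 held neither motif in this window. Promoters were matched for 35 of the 44 members, and 13 of them (37.1%) held the NF-kB consensus in these 250 bases, against 6.33% of 33469 rat promoters. The list was put together partly from known NF-kB targets. Of these 13 genes, 9 were tested: Ccl7, Ccl20, Cxcl1, Cxcl10, Cxcl11, Nfkb2, Nfkbia, Socs3 and Vcam1. Their log2 fold changes ran from -0.59 to 0.81, 5 positive and 4 negative, and Cxcl10 alone was at an unadjusted p under 0.05. The value of -0.59 belongs to Ccl7, which was kept through the water group alone. The interferon-response motif was in 4 member promoters (Ccl19, Cxcl10, Il6st and Vcam1; 11.4%), against 3.41% of all. A match describes these letters and is not evidence of a bound factor.

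The monocyte and macrophage attractants overlapped between the groups. Ccl2, which draws monocytes through CCR2, read -1.05, -0.72 and -0.25 in water and -0.47, -0.26 and -1.62 in treated cortex, with the lowest signal on ethylenediamine replicate 3. Ccl3 and Ccl4, macrophage inflammatory proteins that attract leukocytes, were also within the range of water or below it on that array: Ccl3 read -1.44, -1.30 and -0.70 in water and -0.65, -1.36 and -1.43 in treated cortex, and Ccl4 ran from -2.35 to -1.45 in water and from -2.62 to -1.58. Ccl7, another monocyte attractant, had the most negative value of the list. Its signal was -5.20, -4.80 and -4.36 in water, where it was well above background on 3 of 3 arrays, and -5.55, -4.85 and -5.71 in treated cortex, where it was well above background on 1 of 3. Its log2 fold change came to -0.59 ± 0.30 (SE, 3 rats per group; adjusted p = 0.56 by limma), and -0.10 with normexp background correction. Ccl7 was kept through the water group alone, where it was higher, so this value is not read as a change. Ccl5, a T cell and monocyte attractant, was nearly level in treated cortex, with a group mean of 1.53 ± 0.05 (SD, n = 3) against 1.55 ± 0.40 in water. Ccl20, the ligand of CCR6, stood at -1.61 on ethylenediamine replicate 2 and from -3.32 to -2.37 on the other 5 arrays.

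The membrane-bound chemokines had small spreads. Cx3cl1 (fractalkine), whose receptor marks monocytes and renal dendritic cells, ran from 5.36 to 5.51 in water and from 5.28 to 5.56 in treated cortex. Cxcl16 ran from 4.52 to 4.74 and from 4.57 to 4.70. Their 95% intervals were -0.23 to 0.21 for Cx3cl1 and -0.17 to 0.21 for Cxcl16 on the log2 scale, so that a 2-fold difference lay outside both. Cxcl12, the ligand of CXCR4, read 3.99, 4.62 and 3.66 in treated cortex against 4.27 to 4.46 in water, with replicate 2 above and the others below all water arrays. Its 3 probes gave log2 fold changes from -0.28 to -0.25. The homeostatic chemokine Cxcl14 read 0.87, 0.48 and 1.49 against -0.02 to 0.97, and its log2 fold change came to 0.48 ± 0.34 (SE, 3 rats per group; adjusted p = 0.664 by limma). Cxcl13, which draws B cells, had the widest range among the water rats, at 0.02, -0.94 and 1.28, and read 0.23, -0.19 and -1.02 in treated cortex.

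**Figure D3:**
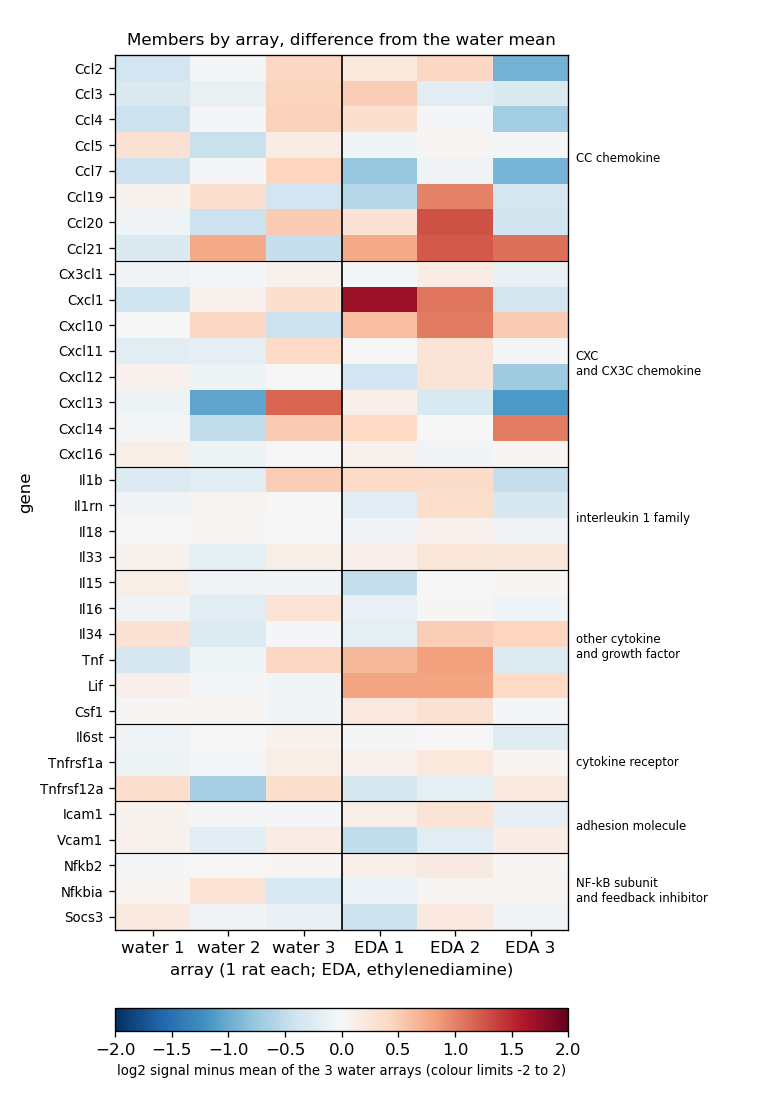
Signal of the 34 tested members (rows, by role) on each array (columns; EDA, ethylenediamine) as the log2 difference from the mean of the 3 water arrays, with red above and blue below. Lif, Cxcl10 and Ccl21 are red on all 3 treated arrays, while Cxcl1, Ccl20 and Tnf are red on ethylenediamine replicate 2 and blue on replicate 3.

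In the interleukin 1 family, the agonist Il1b read -1.29, -1.23 and -0.53 in water and -0.64, -0.65 and -1.48 in treated cortex, with ethylenediamine replicate 3 below all water arrays and the others within their range. Its receptor antagonist Il1rn ran from -2.22 to -2.12 in water and stood at -2.40, -1.82 and -2.49 in treated cortex. Il18, a cytokine of tubule cells and macrophages that inflammasomes process, ran from 0.13 to 0.18 in water and from 0.07 to 0.23, the narrowest spread of the list. The alarmin Il33, kept in the nucleus of stromal and endothelial cells, read 3.33, 3.06 and 3.37 against 3.36, 3.49 and 3.48, with a log2 difference of 0.19 ± 0.10 (SE, 3 rats per group; adjusted p = 0.556 by limma). Il1a was not well above background on any array, and Il1r1 had no matched probe.

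Tnf, which encodes tumour necrosis factor, followed the pattern of Cxcl1. Its signal was -2.46, -2.21 and -1.70 in water and -1.47, -1.31 and -2.39 on ethylenediamine replicates 1 to 3, with the first and second treated rats above all water rats. The log2 fold change came to 0.40 ± 0.34 (SE, 3 rats per group; adjusted p = 0.704 by limma), and 0.73 without ethylenediamine replicate 3, where the unadjusted p was under 0.05. The CSF1 receptor ligands Csf1 and Il34 maintain macrophages. Csf1 ran from -0.61 to -0.52 in water and stood at -0.36, -0.26 and -0.59 in treated cortex. Il34 read 4.64, 4.08 and 4.33 against 4.16, 4.85 and 4.78, and lay above all water arrays on replicates 2 and 3, those of slide 2. Il15, which sustains natural killer and memory T cells, was lowest on ethylenediamine replicate 1, at -1.79, against -1.38 to -1.20 in water and -1.30 and -1.27 on the other treated arrays. Il16, a ligand of CD4, overlapped fully, from -0.97 to -0.50 and from -0.91 to -0.74. Il6 was not well above background on any array. Il10, an anti-inflammatory cytokine, was well above background on water replicate 2, at -5.05, and on ethylenediamine replicate 3, at -3.05, and read -7.43 to -5.75 on the other 4, so it was not tested. Csf2 had no matched probe.

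Receptors and adhesion molecules overlapped between the groups. Il6st, the gp130 chain through which Lif signals, ran from 3.73 to 3.86 in water and from 3.56 to 3.81 in treated cortex, and its log2 fold change came to -0.09 ± 0.09 (SE, 3 rats per group; 95% interval -0.30 to 0.13). Osmr, a partner of gp130, was not tested: its brighter probe was well above background on ethylenediamine replicate 2 alone, and its other probe on ethylenediamine replicate 3 alone. The receptor of tumour necrosis factor Tnfrsf1a ran from 1.72 to 1.96 and from 1.86 to 2.04. The TWEAK receptor Tnfrsf12a read 1.13, 0.12 and 1.11 in water and 0.47, 0.61 and 0.97, inside the water range. The endothelial adhesion molecules that bind leukocyte integrins gave no difference beyond their spread. Icam1 ran from 1.67 to 1.78 and from 1.54 to 1.98, at 0.07 ± 0.12, and Vcam1 from 2.49 to 2.87 and from 2.23 to 2.87, at -0.18 ± 0.19.

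The NF-kB genes that can be read gave no difference beyond their spread. Nfkb2, a precursor subunit that NF-kB itself switches on, read 0.04, 0.09 and 0.11 in water and 0.21, 0.26 and 0.10 in treated cortex, a log2 difference of 0.11 ± 0.06 (SE, 3 rats per group; 95% interval -0.05 to 0.27). Nfkbia, the inhibitor that NF-kB induces against itself, read 1.81, 2.04 and 1.47 against 1.65, 1.80 and 1.83, with a log2 fold change of -0.01 ± 0.15 and a 95% interval of -0.38 to 0.36. Socs3, the feedback inhibitor of gp130 signalling, read -1.57, -1.83 and -1.90 against -2.19, -1.57 and -1.85. Its second, dimmer probe ran the other way, from -5.18 to -5.01 in water and at -4.27, -4.49 and -5.00 in treated cortex. This dimmer probe passed the background test on 2 of the 3 water arrays and on all 3 treated ones, so it was kept through the treated group alone. Its highest signal was on ethylenediamine replicate 1, where the lowest signal well above background was -4.45. The log2 difference of this probe was 0.50 ± 0.19 (adjusted p = 0.446 by limma over all probes), which is not read as a change because of that filter. Nfkb1, Relb and Tnfaip3 had no matched probe. Probes disagreed in sign for 3 of the 14 members with more than 1 probe above background: Socs3, Ccl5 and Cx3cl1.

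The members varied more between rats of a group than most genes. The median within-group SD of the log2 signal was 0.28 over the 34 members and 0.12 over all genes. It was among the highest 25.0% of all genes for 23 members, and for 25 members when genes were ranked within 10 groups of like mean brightness. Cxcl13, Cxcl1, Ccl20, Ccl19 and Ccl2 had the widest spreads, with SDs of 0.91, 0.80, 0.68, 0.65 and 0.59, and Il18 and Nfkb2 the narrowest, at 0.07 each. A log2 fold change of a member was accordingly known to ± 0.16 at best and ± 1.52 at worst (95% interval).

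**Figure D4:**
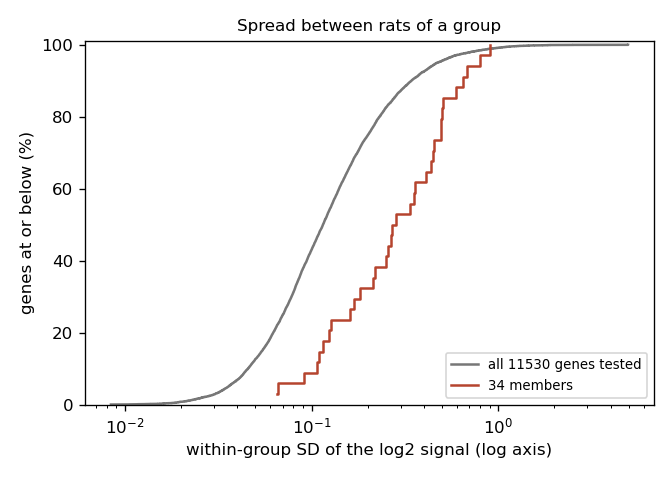
Cumulative percentage of genes (y axis) by the within-group SD of the log2 signal over 3 water and 3 ethylenediamine arrays (x axis, log scale), for the 34 members (red) and all 11530 genes tested (grey). The red curve lies to the right of the grey one over most of its length, with medians of 0.28 and 0.12.

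The spread had a pattern by rat. Ethylenediamine replicate 2 had the highest signal of all 6 arrays for 16 of the 34 members (17.3% of all genes), and ethylenediamine replicate 3 had the lowest for 11 (20.3% of all genes) and the highest for 1 (19.9% of all genes). Water replicate 3 was the highest of the water arrays for 18 members, Ccl2, Ccl3, Ccl4, Ccl7, Ccl20, Cxcl1, Cxcl13, Il1b and Tnf among them, against 32.2% of all genes. The median difference from the water mean over the members was 0.08, 0.20 and -0.07 on ethylenediamine replicates 1 to 3, where the median over all genes was 0.00 on each. On ethylenediamine replicate 2 the neutrophil genes S100a9 and S100a8 were also at their highest, at -0.90 and -2.24, against -2.70 to -1.74 and -3.92 to -3.07 on the other 5 arrays. Kit, also measured in the same list of neutrophil and mast cell markers, was not at its highest there. The neutrophil markers Csf3r, Cxcr2, Elane and Ltf were not above background on all arrays of a group, and Mpo had no matched probe. The part of S100a9 and S100a8 in the member values was not tested.

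Of the wider pathway, taken as 5 fixed lists, 0 genes passed an adjusted p of 0.05 by limma. Among 24 measured genes of the NF-kB core, its kinases and adaptors, unadjusted p values under 0.05 were found for 1 higher gene, Birc3, and 2 lower ones, Ripk2 and Map3k7. Over all genes tested, 5.39% were higher and 4.97% lower at that level, and 17.5% had groups without overlap in either direction. Such counts are therefore not read as results about the lists. Birc3, a ubiquitin ligase and NF-kB target, read -2.73, -2.59 and -2.47 in water and -2.43, -2.08 and -2.29 in treated cortex, so that the groups were apart, with a log2 fold change of 0.33 ± 0.11. The kinase Ripk2 read -2.49, -2.37 and -2.41 against -2.54, -2.70 and -2.73, also apart, at -0.23 ± 0.07. Adjusted p values by limma were 0.421 and 0.407 (SE, 3 rats per group). Within slide 1 Birc3 stood at 0.17 and Ripk2 at -0.11, neither at an unadjusted p under 0.05, and Ripk2 stood at -0.15 with normexp and at -0.37 as the mean of its probes. That p was also lost for Birc3 without water replicate 1 or 2 or ethylenediamine replicate 2 or 3, and for Ripk2 without water replicate 2 or 3 or ethylenediamine replicate 2 or 3. Rela, the main transactivating subunit, ran from 1.26 to 1.36 and from 1.21 to 1.37, at 0.00 ± 0.07, with a negative sign under median, quantile and normexp settings.

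In the gp130 and STAT3 list, 2 of 17 measured genes were higher and 1 lower at an unadjusted p under 0.05, beside 5.39% and 4.97% of all genes. Cntf, ciliary neurotrophic factor, which like Lif signals through gp130, was among those higher and read -1.04, -1.07 and -1.11 in water and -0.83, -0.54 and -0.60 in treated cortex, with no overlap. Its log2 fold change came to 0.42 ± 0.09 (SE, 3 rats per group; adjusted p = 0.329 by limma) and 0.24 within slide 1. Stat3, the transcription factor downstream of gp130, read 2.17, 2.23 and 2.11 against 2.10, 2.34 and 2.41, at 0.11 ± 0.09, and at -0.07 within slide 1.

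Of the receptors for the listed ligands, 20 of 35 were measured, and 0 were at an unadjusted p under 0.05 in either direction. The smallest p values belonged to Csf2rb, the shared chain of GM-CSF receptors, at -0.25 ± 0.10, and Il1rap, the co-receptor for interleukin 1, at 0.26 ± 0.11 (SE, 3 rats per group; adjusted p of 0.481 and 0.486 by limma). A further 11 were matched but not above background on all arrays of a group, among them Ccr1, Ccr2, Cxcr2 and Cxcr5. Of the inflammasome list 8 of 12 were measured with 0 at that level, Casp4 at 0.17 ± 0.10 and the adaptor Pycard at -0.11 ± 0.10. Of the adhesion list 9 of 14 were measured and 1 was higher at that level, beside 5.39% of all genes. It was Cd47, a widely expressed ligand of SIRP-alpha, at 0.29 ± 0.10, without overlap. Cd47 stood at 0.13 within slide 1 and at 0.18 without ethylenediamine replicate 3, and was no longer at an unadjusted p under 0.05 within slide 1, with median scaling, as the mean of its probes, without any 1 water array, or without ethylenediamine replicate 2. Icam2 stood at -0.26 ± 0.14, and the endothelial selectins Sele and Selp were not above background on all arrays of a group.

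None of the measured leukocyte markers was at an unadjusted p under 0.05 by limma in either direction. Of 18 macrophage and dendritic cell markers 14 were measured, 4 positive and 10 negative. Their summed linear signal ran from 138 to 152 array units in water and from 125 to 135 in treated cortex, where 1 unit is the array's 75th percentile. The largest term of this sum on all 6 arrays, Lyz2 (lysozyme), overlapped between the groups, from 5.76 to 6.24 in water and from 5.99 to 6.03 in treated cortex. The next largest term, Cd74, the invariant chain of MHC class II, read 5.16, 5.67 and 5.12 in water and 5.07, 4.88 and 4.52 in treated cortex. Its groups did not overlap, while those of every other measured marker of this list did. A sum of linear signals is weighted to its brightest terms, so the lower treated sum is not a measure of the list as a whole. The macrophage receptor Csf1r stood at -0.03 ± 0.09 and the pan-leukocyte marker Ptprc at -0.07 ± 0.13 (SE, 3 rats per group). Of 14 T and NK markers 10 were measured, 7 positive, and their sum ran from 2.29 to 3.01 and from 2.49 to 2.67, while Cd3e, Cd2, Cd5 and Cd28 were not above background on all arrays of a group. Cd8a, 1 of the 7, was kept through the treated group alone, so its sign is not read as a change. Lck and Klrb1a, also positive, were kept through the water group alone. Of 8 B and plasma cell markers 3 were measured, with sums from 1.08 to 1.26 and from 1.22 to 1.29. Of 10 neutrophil and mast cell markers 3 were measured, with sums from 0.542 to 0.80 and from 0.534 to 1.11. Of 11 endothelial markers 9 were measured, 4 positive and 5 negative, with sums from 39.5 to 42.1 and from 31.8 to 39.7. The largest term, Kdr, was lowest on ethylenediamine replicate 3, at 4.36, against 4.69 to 4.81 on the other arrays. The angiopoietin receptor Tek was the 1 endothelial marker lower at an unadjusted p under 0.05, at -0.19 ± 0.07, with the groups apart. Over all genes, 4.97% were lower and 5.39% higher at that level, and 17.5% had groups apart. Of 9 fibroblast and pericyte markers 8 were measured, with sums from 34.0 to 42.8 and from 34.7 to 42.2. The collagen gene Col1a1 was the 1 of these higher at that level, at 0.36 ± 0.14, also with the groups apart. The part of these cells in the values of Lif, Cxcl10 and Ccl21 was not tested.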

How the data were processed

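Per the file headers, Agilent Feature Extraction 10.7.1.1 made the scanner output that the authors deposited for each array (the submitters' processing notes name 10.7). It holds linear spot intensity, background-subtracted and detrended but not scaled between arrays. Per the labels' protocols, 0.2 ug of RNA per rat was labelled with Cy3 as cRNA. A value table, also deposited, is this intensity divided by 1 factor per array, close to the 75th percentile: 100.0% of probes lay within 2% of that ratio. It is linear and uncentred, with 1 value per sample and column medians of 0.1076, 0.1053, 0.1046, 0.1062, 0.1104 and 0.1071 in the order of replicates, water then ethylenediamine. It served as an alternative.

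Here, log2 processed intensity minus the array's 75th percentile was used. Of the spots, 1439 controls and 22 probes with an outlier flag were dropped, and 61515 probes were used, none saturated. Symbols came from RefSeq transcript accessions (GRCr8 annotation, names only; the array's grid is on rn4), for 28194 probes. A probe was kept if every array of 1 or both groups had it well above background (37822 probes), and the brightest stood for each gene (11530 genes). The test was limma's moderated one (version 3.58.1, R 4.3.3; lmFit, eBayes, two-sided, Benjamini-Hochberg over all genes, threshold 0.05; 4 residual and 1.84 prior degrees of freedom), tested on simulated data. The labels give 3 animals per group, and their number limits the precision.

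The members and gene lists were chosen with earlier results of these data known. The rule for named genes took members with an unadjusted p under 0.05, without overlap or with a log2 fold change of at least 0.5 in size, the 2 genes of smallest p in each pathway list, and Rela, Stat3, Csf1r and Ptprc; other genes were named after their values were seen. One gene that the rule names is not reported here. The scanner files used here hold no mean signal, so normexp (offset 50) used the median signal, a choice made after seeing the data.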

Additional observations from a re-analysis of the deposited data

How the results depend on the processing

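The number of members past an adjusted p of 0.05 was 0 under every alternative run, and the median log2 fold change over the members stayed within the spread between arrays in all of them but 1 (0.15 without ethylenediamine replicate 3). Over the fits that left out 1 array, that median ran from -0.044 to 0.15, members higher at an unadjusted p under 0.05 numbered from 1 to 5, members lower from 0 to 3, and all genes past the adjusted threshold from 0 to 1. With the slide as a fixed block 1 member was lower (Il15) and 10 genes were past the adjusted threshold, and within slide 1 there were 2 lower (Il15 and Cxcl12) and 6 genes. An intensity trend gave 1 gene, and every probe tested alone gave 4 probes, none of a member. The same replicate numbers in the groups did not pair the rats: deviations of same-numbered arrays correlated at -0.003, 0.022 and -0.008 across genes. With the replicate block 4 members were higher (Cxcl14 in addition) and 0 genes passed. Among named genes the sign changed for Rela (-0.0059 with normexp, -0.026 with median scaling, -0.0048 with quantile scaling, and from -0.026 to 0.056 over the fits without 1 array), for Stat3 (-0.072 with a slide term and also within slide 1), for Csf1r (from -0.071 to 0.041 without 1 array, positive without water replicate 1 or ethylenediamine replicate 1) and for Ptprc (from -0.20 to 0.035, positive without water replicate 3). The cause was not tested. Without a filter Cxcl2 was added to the members at an unadjusted p under 0.05, below background on all arrays. Signals near background limit Ccl7 and the members not tested.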
